A study of Mus musculus with 5 samples.

Results

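The 10 subunits of the SIN3 histone deacetylase complex described here were *Sin3a*, *Sin3b*, *Hdac1*, *Hdac2*, *Suds3*, *Brms1*, *Brms1l*, *Sap30*, *Sap130* and *Sap18*. They were chosen by name, as a list of subunits, with earlier results of these data known. All 10 had a probe set among the 19938 genes examined. ARID4B, the protein lowered in this study, is itself a subunit of the complex, and its gene is described beside the 10 but is not counted among them. The comparison asked how expression of the other subunits stood in cells with less ARID4B. At the unadjusted threshold of p under 0.05, *Sap130*, *Sin3a*, *Brms1*, *Hdac1* and *Sap18* were lower in the knockdown cohort, and no subunit was higher. On the linear scale *Hdac1* fell by 17.1% and *Sap18* fell by 21.4%, the smallest and the largest differences of those 5 genes. No subunit passed after adjustment over all genes.

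RNA from 5 lines of 6DT1, a highly metastatic mouse mammary carcinoma cell line, was hybridized to Affymetrix Mouse Gene 1.0 ST arrays, with 1 array per line. The *Arid4b* knockdown cohort (n = 2) held the lines stably transduced with lentiviral *Arid4b* hairpin H3 or H4, and both were selected with puromycin. The control cohort (n = 3) held a line with hairpin H5, which also targets *Arid4b* but left ARID4B protein near the control level, a line with a scrambled hairpin, and untransduced 6DT1 cells. H5 and the scrambled line were selected with puromycin as the knockdown lines were, and the untransduced cells were not. ARID4B densitometry, relative to the scrambled line, was 0.19 (H3) and 0.15 (H4) in the knockdown cohort, against 1.02 (H5), 1.00 (scrambled) and 1.09 (untransduced) in the control cohort. Each transduced line was a pool of clones, so that the values are averages over cells that may differ in knockdown, and nothing in the labels says that separate cultures of a line were arrayed. The p-values therefore rest on how much single arrays of different lines vary, some of which may be technical.

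SIN3 proteins are large scaffolds that do not bind DNA themselves. Transcription factors such as the MAD (MXD) proteins recruit them through their paired amphipathic helix domains, and the scaffold brings the deacetylases HDAC1 and HDAC2, which remove acetyl groups from histone tails and are mostly associated with lower transcription. SUDS3 (also called SDS3), BRMS1 and BRMS1L form a small family of subunits that hold the deacetylases in the complex, and BRMS1 is known as a suppressor of breast cancer metastasis. SAP30, SAP130 and SAP18 are accessory subunits. HDAC1 and HDAC2 also serve the NuRD, CoREST and MiDAC complexes, and SAP18 also serves the ASAP and PSAP complexes, which act with the exon junction complex in splicing.

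Expression values are on the authors' log2 scale, on which a difference of 1 is a doubling. Levels of different genes come from different probe sets and are not ordered against each other. *Arid4b* had 6.88 and 7.35 in H3 and H4, against 8.24, 8.34 and 8.36 in H5, the scrambled line and untransduced cells, a difference of -1.2 (SE 0.15, unadjusted p = 0.000767 from limma). Over all genes, 7.61% were lower and 4.34% higher at the unadjusted threshold, and no gene (0%) passed a Benjamini-Hochberg adjusted p of 0.05. Higher genes made up 36.3% of these calls as deposited, 20% after array medians were subtracted and 49.4% after another quantile normalization. The median over all probe sets was 6.35 on the H3 array and 6.24 to 6.25 on the others. Of the epithelial markers, the keratin genes *Krt8* (11.81 to 12.26), *Krt18* (11.57 to 11.71) and *Krt19* (7.26 to 8.35) lay above the array medians on every array. The keratin genes *Krt5* (5.70 to 5.88) and *Krt14* (5.99 to 6.13) and the junction genes *Epcam* (5.61 to 5.75) and *Cdh1* (6.05 to 6.16) lay below them. None of the 7 epithelial, 5 fibroblast and 4 endothelial markers passed the unadjusted threshold. Of the 5 measured leukocyte markers, *Csf1r* passed, with 5.54 and 5.40 in H3 and H4, against 5.26 to 5.30 in the control lines. The list medians, over the 5 arrays, were 6.05 to 6.16 for the epithelial, 5.26 to 5.54 for the leukocyte, 6.88 to 7.09 for the fibroblast and 5.57 to 5.72 for the endothelial markers. The part of other cell types in the results below was not tested.

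The promoter windows of the scaffold genes and of *Sap18* show what the DNA around these genes looks like, and the scaffold pair is shown because *Sin3a* passed the unadjusted threshold and *Sin3b* did not. Their difference from each other is tested with the other pairs of paralogs. The windows are RefSeq sequence of assembly GRCm38.p6, from 250 bases before to 50 bases after the annotated start of the gene, all on the plus strand. Capitals mark exact matches on either strand to CCAAT (the NF-Y motif, ATTGG on the other strand), GGGCGG (the GC box, CCGCCC on the other strand), TTTGAA (the CHR motif) or GCGCATGCG (the NRF1 motif). The *Sin3a* window at chr9:57076126-57076425 was the one of its 2 windows with more matches, the *Sin3b* window lies at chr8:72723020-72723319, and the *Sap18* window at chr14:57797939-57798238.
Sin3a: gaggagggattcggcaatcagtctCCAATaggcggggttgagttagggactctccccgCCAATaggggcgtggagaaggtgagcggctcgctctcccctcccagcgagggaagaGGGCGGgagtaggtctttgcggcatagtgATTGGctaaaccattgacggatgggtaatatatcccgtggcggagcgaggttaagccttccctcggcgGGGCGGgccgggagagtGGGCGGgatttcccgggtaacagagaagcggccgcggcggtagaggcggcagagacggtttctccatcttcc
Sin3b: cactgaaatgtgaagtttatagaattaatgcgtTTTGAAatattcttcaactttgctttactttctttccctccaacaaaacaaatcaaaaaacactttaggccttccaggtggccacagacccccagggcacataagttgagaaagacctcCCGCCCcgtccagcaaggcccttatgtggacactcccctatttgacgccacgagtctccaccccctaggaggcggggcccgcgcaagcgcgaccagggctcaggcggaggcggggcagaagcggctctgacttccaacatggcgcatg
Sap18: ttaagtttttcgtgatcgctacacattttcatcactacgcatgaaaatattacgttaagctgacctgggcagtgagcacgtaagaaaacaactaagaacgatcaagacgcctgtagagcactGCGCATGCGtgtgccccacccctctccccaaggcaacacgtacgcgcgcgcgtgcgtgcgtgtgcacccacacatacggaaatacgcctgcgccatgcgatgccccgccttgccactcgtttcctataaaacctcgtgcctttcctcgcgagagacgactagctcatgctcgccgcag
Windows were found for 7 of the 10 subunits (8 windows, since *Sin3a* has 2), and not for *Hdac1*, *Brms1* and *Sap130*. They were rich in CpG dinucleotides, with an observed over expected CpG ratio of 0.67 to 1.35, against a median of 0.38 over 32851 windows of all genes. Their GC content was 50% to 71.7%, against a median of 52.7%. The GC box occurred in 6 of the 8 windows, those of *Hdac2*, *Sap30*, *Sin3a* (both), *Sin3b* and *Suds3*, and in 35.7% of all windows. CCAAT occurred in both *Sin3a* windows and in that of *Brms1l*, and in 37.4% of all windows. The CHR motif was found for *Sin3b* (17.9% of all windows), the NRF1 motif for *Sap18* (1.75%) and the ETS motif CCGGAAGT for *Suds3* (3.89%). None of the 8 windows held the E2F motifs TTTGGCGC (0.514% of all windows), TTTCCCGC (1.07%) or TTTCGCGC (0.323%), or the YY1 motif AAGATGGCG (1.4%). Each motif was searched on both strands, and a match is a match of letters only. Of the 7 genes with a window, *Sin3a* and *Sap18* were lower in the knockdown cohort at the unadjusted threshold, and these 2 shared none of the motifs.

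Of the scaffolds, *Sin3a* was lower in the knockdown lines and *Sin3b* was not. *Sin3a* had 8.70 and 8.56 in H3 and H4, against 8.96, 8.82 and 8.95 in H5, the scrambled line and untransduced cells. Both knockdown lines lay below every control line, and the scrambled line was the lowest of the controls. The cohort means were 8.63 ± 0.10 (SD, n = 2) and 8.91 ± 0.076 (SD, n = 3). *Sin3a* fell by 0.28 on the log2 scale, or fell by 17.5% (SE 0.074, 95% interval -0.47 to -0.083), with an unadjusted p = 0.0153 and an adjusted p = 0.328 from limma. *Sin3a* overlaps a lncRNA gene, 2700012I20Rik, in the RefSeq annotation. *Sin3b* had 8.82 and 8.69 in H3 and H4, against 8.77, 8.73 and 8.64 in H5, the scrambled line and untransduced cells, and the cohorts overlapped. Its difference was 0.04 (SE 0.069, 95% interval -0.14 to 0.22, unadjusted p = 0.592 from limma), an interval that leaves room for a change in either direction.

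The deacetylase genes differed by the same amount, but the spread between control lines differed. *Hdac1* had 10.54 and 10.68 in H3 and H4, against 10.86, 10.80 and 10.99 in H5, the scrambled line and untransduced cells. Both knockdown lines lay below all controls, by a gap of 0.11 between the nearest lines. The cohort means were 10.61 ± 0.099 (SD, n = 2) and 10.88 ± 0.10 (SD, n = 3). *Hdac1* fell by 0.27 on the log2 scale, or fell by 17.1% (SE 0.083, 95% interval -0.49 to -0.051, unadjusted p = 0.0257 and adjusted p = 0.353 from limma). A second probe set annotated to *Hdac1* had 10.42 and 10.60 in the knockdown lines, against 10.79, 10.73 and 10.91 in the control lines, a difference of -0.30 (SE 0.086, unadjusted p = 0.0205 from limma), so that its 2 probe sets gave the same direction and call. *Hdac2* had 9.93 and 10.03 in H3 and H4, against 10.16, 10.08 and 10.52 in H5, the scrambled line and untransduced cells. Its knockdown lines also lay below all controls, with a gap of 0.051, but untransduced cells stood well above the other controls. Its difference of -0.27 had an SE of 0.15 and a 95% interval of -0.67 to 0.12 (unadjusted p = 0.134 from limma).

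In the SDS3 and BRMS1 family, only *Brms1* passed the unadjusted threshold. *Brms1* had 8.44 and 8.25 in H3 and H4, against 8.58, 8.58 and 8.74 in H5, the scrambled line and untransduced cells, and the cohorts did not overlap. The cohort means were 8.34 ± 0.13 (SD, n = 2) and 8.64 ± 0.093 (SD, n = 3). *Brms1* fell by 0.29 on the log2 scale, or fell by 18.4% (SE 0.088, 95% interval -0.52 to -0.06, unadjusted p = 0.0237 and adjusted p = 0.352 from limma). *Brms1l*, whose product shares much of its sequence with BRMS1, had 8.26 in both knockdown lines, against 8.47, 8.22 and 8.77 in H5, the scrambled line and untransduced cells. Its control lines spread over a range that held both knockdown values, and its difference of -0.23 had a 95% interval of -0.68 to 0.23 (unadjusted p = 0.248 from limma). *Suds3* had 10.01 and 10.13 in H3 and H4, against 10.02, 9.86 and 10.01 in H5, the scrambled line and untransduced cells. H3 lay within the controls and H4 above them, and the difference was 0.11 (SE 0.076, 95% interval -0.092 to 0.31, unadjusted p = 0.219 from limma).

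Among the SAP genes, *Sap130* and *Sap18* were lower and *Sap30* was not. *Sap130*, which encodes a subunit that helps assemble the complex, had 10.05 and 9.95 in H3 and H4, against 10.33, 10.24 and 10.42 in H5, the scrambled line and untransduced cells. The gap between the cohorts was 0.20, more than the range of either the knockdown or the control values. The cohort means were 10.00 ± 0.067 (SD, n = 2) and 10.33 ± 0.09 (SD, n = 3). *Sap130* fell by 0.33 on the log2 scale, or fell by 20.7% (SE 0.072, 95% interval -0.52 to -0.14, unadjusted p = 0.00698 and adjusted p = 0.292 from limma), and had the smallest p of the 10 subunits. It overlaps a lncRNA gene, Gm52327, in the annotation. *Sap18* had 7.46 and 7.67 in H3 and H4, against 7.93, 7.73 and 8.08 in H5, the scrambled line and untransduced cells, and the gap between H4 and the scrambled line was 0.056. The cohort means were 7.57 ± 0.15 (SD, n = 2) and 7.91 ± 0.17 (SD, n = 3). *Sap18* fell by 0.35 on the log2 scale, or fell by 21.4% (SE 0.13, 95% interval -0.69 to -0.005, unadjusted p = 0.0478 and adjusted p = 0.413 from limma). Its interval ended close to 0. A probe set annotated to both *Sap18* and *Sap18b* was not used for either gene, and it had 9.54 and 9.58 in the knockdown lines, against 9.58, 9.78 and 9.67 in H5, the scrambled line and untransduced cells (difference -0.12, unadjusted p = 0.174 from limma), so that the call for *Sap18* rests on its own probe set. The microRNA gene Mir3077 overlaps *Sap18* in the annotation. *Sap30*, whose product bridges SIN3 and other proteins, had 7.24 and 7.54 in H3 and H4, against 7.06, 7.03 and 7.52 in H5, the scrambled line and untransduced cells. Each cohort held a high and a low line, and the difference was 0.18 (SE 0.19, 95% interval -0.33 to 0.69, unadjusted p = 0.389 from limma).

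**Figure D1:**
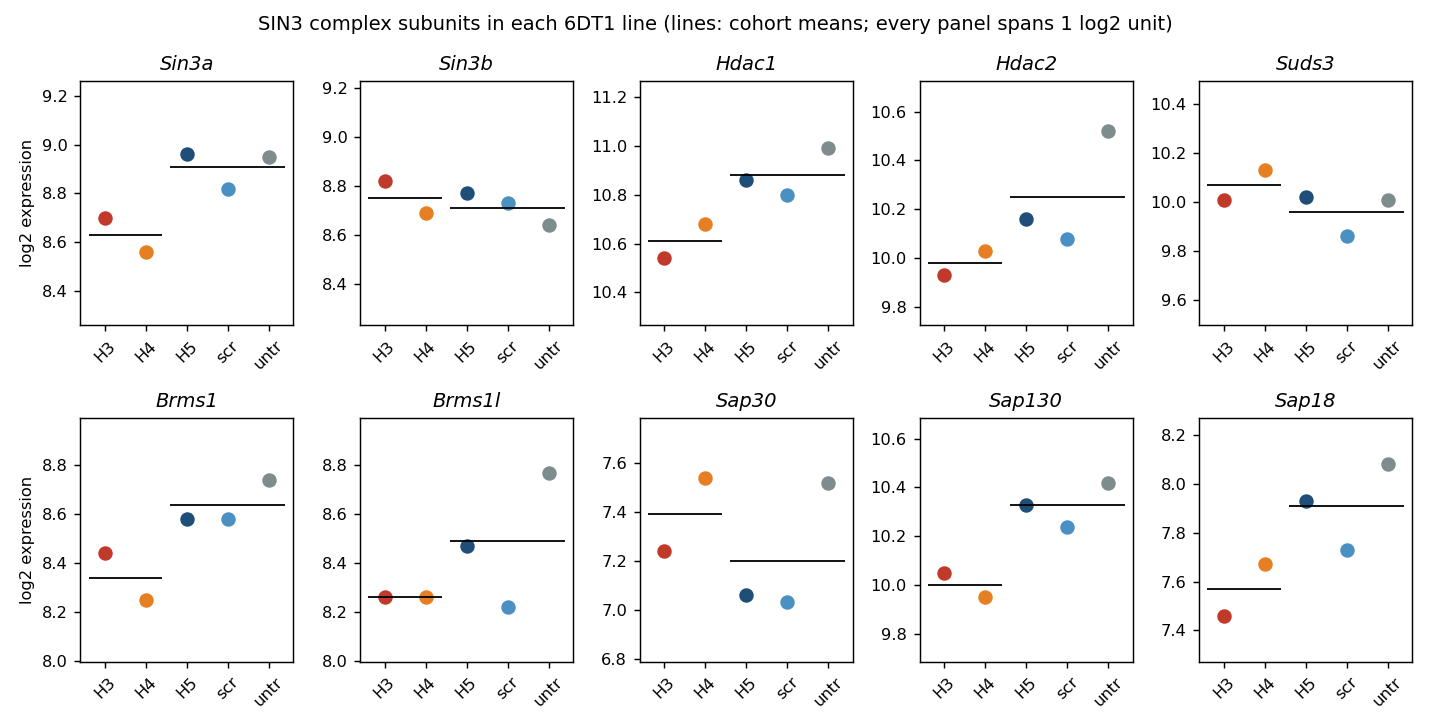
Log2 expression of the 10 SIN3 subunit genes in each 6DT1 line, knockdown lines H3 and H4 left of the control lines, 1 point per array. Horizontal lines are cohort means. *Sap130* has the widest gap between the cohorts, at 0.20, while the cohorts of *Sin3b*, *Suds3*, *Brms1l* and *Sap30* overlap.

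As a list, 5 of the 10 subunits (50%) were lower in the knockdown cohort at the unadjusted threshold, against 7.61% of all genes, and 0 were higher, against 4.34%. With the 1 in 3 genes of lowest mean left out, which kept all 10 subunits, 11.3% of the remaining genes were lower and 4.54% higher. The log2 fold change was below 0 for 7 subunits, against 38.7% of all genes, and the median was -0.27, against 0.033 over all genes. Both knockdown lines lay below all 3 control lines for 6 subunits, the called 5 and *Hdac2*, against 13.5% of all genes. Both lay above all controls for 0 subunits, against 13.9%. These counts describe a list of named genes, chosen with earlier results of these data known, and are not a test of the list. *Sin3b*, *Suds3* and *Sap30* were the subunits with positive differences. No subunit passed the adjusted threshold, where the smallest adjusted p was that of *Sap130*.

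**Figure D2:**
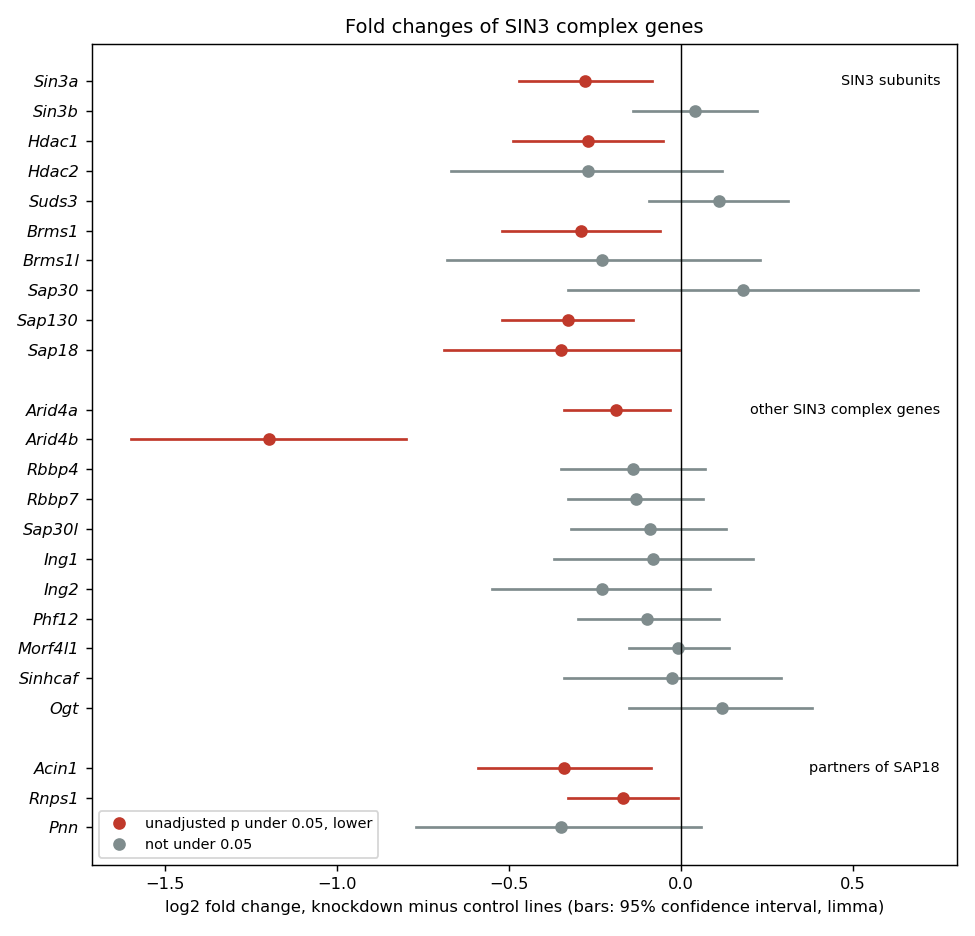
Log2 fold change, knockdown minus control, of the 10 subunit genes, of the other measured SIN3 complex genes and of the partner genes of SAP18, with 95% intervals from limma. Red points were lower at an unadjusted p under 0.05 and grey points did not pass, and the 5 called subunits lie between -0.35 and -0.27, while *Arid4b* lies at -1.2.

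In the values as deposited, the 2 knockdown lines had the same median distance from the control means over the 10 subunits, -0.22 in H3 and -0.22 in H4. The median over all probe sets was 6.35 on the H3 array and 6.24 on the H4 array. The equality therefore depends on the scaling, and so do small differences between H3 and H4. Which of the 2 lines was the lower varied between subunits. H4 was below H3 for *Sin3a*, by 0.14, for *Sin3b*, by 0.14, for *Brms1*, by 0.19, and for *Sap130*, by 0.094. H3 was the lower for the other 6 subunits, so that H4 was below H3 in 40% of the subunits, against 58.9% of all genes. The proliferation genes, which encode replication and mitosis proteins and are known to vary with growth rate, also differed between the cohorts in the same arrays. All 18 measured proliferation genes were lower in the knockdown cohort at the unadjusted threshold, against 7.61% of all genes, with a median of -0.92. The count was 4 without untransduced cells, 3 without H5, 7 without H4, 13 without the scrambled line and 3 under an unmoderated test, and the median stayed between -1.34 and -0.46 when a line was left out. H4 was below H3 for all 18 genes. The scrambled line was the lowest control for 18 of the 18, as it was for 9 of the 10 subunits, and untransduced cells had the highest value of all 5 lines for 66.7%, as they did for 60% of the subunits. Whether the pattern over lines differs between the 2 lists was not tested. Their median distance from the control means was -0.46 for H3 and -1.34 for H4, and among the controls it was 0.047 for H5, -0.19 for the scrambled line and 0.16 for untransduced cells. *Mcm4*, a subunit of the replicative helicase, had 9.14 and 8.75 in H3 and H4, against 9.78, 9.52 and 9.90 in the control lines. The part of growth rate in the values of the subunits was not tested.

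**Figure D3:**
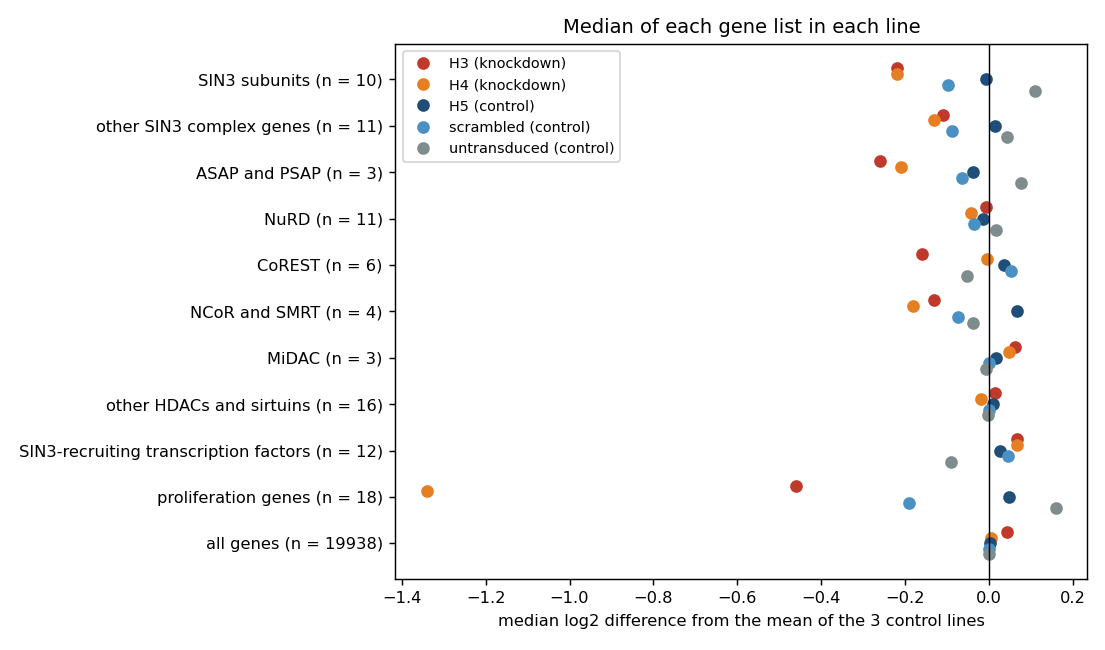
Median distance of each gene list from the control mean, in log2 units on the horizontal axis, with 1 coloured point per 6DT1 line and the lists running down the page. In the values as deposited, the SIN3 subunits lie at -0.22 in both knockdown lines, and the proliferation genes at -0.46 in H3 and -1.34 in H4.

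The control lines also differed among themselves. The median distance of the 10 subunits from the control mean was -0.0064 in H5, -0.098 in the scrambled line and 0.11 in untransduced cells. The scrambled line was the lowest control for 9 of the 10 subunits, all but *Sin3b*, against 34.2% of all genes. Untransduced cells had the highest value of all 5 lines for 6 subunits, against 19.7% of all genes, and lay above both H5 and the scrambled line for 7, against 31.8%. The difference of untransduced cells from the mean of the puromycin-selected controls was 0.47 for *Sap30*, 0.43 for *Brms1l*, 0.40 for *Hdac2* and 0.25 for *Sap18*. For *Sin3a* it was 0.061 and for *Sap130* 0.13. Both knockdown lines were below both H5 and the scrambled line for 6 subunits, against 15.9% of all genes, and below the scrambled line alone for 6 subunits, against 21.6%. Without untransduced cells, all lines had been selected with puromycin, and the median of the subunits was -0.18. Of the 5 calls 1 was kept, that of *Sap130* (unadjusted p = 0.0175 from limma), and 5.07% of all genes were lower in that fit. *Sin3a* then differed by -0.26 (unadjusted p = 0.0517 from limma) and *Hdac1* by -0.22 (unadjusted p = 0.0516 from limma). *Brms1* differed by -0.24 (unadjusted p = 0.0556 from limma) and *Sap18* by -0.26 (unadjusted p = 0.107 from limma).

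Leaving out another line changed the calls as well. Without H3 or without H4, 1 knockdown line remained, which was assumed to vary like the controls. The set of calls changed, and the median of the subunits was -0.22 each time. Without H5, *Brms1* and *Sap130* were called (3.89% of all genes lower), and without the scrambled line all 5 were (8% of all genes lower). Over 14 alternatives, *Sap130* was called in 13, *Sin3a* in 9, *Hdac1* and *Brms1* in 8 each, *Sap18* in 7 and *Suds3* in 1, and *Sin3b*, *Hdac2*, *Brms1l* and *Sap30* in 0. The difference of *Sap130* ranged over -0.38 to -0.27 and that of *Sin3a* over -0.35 to -0.20. The direction was the same under all 14 for every subunit but *Sin3b*, whose difference ranged over -0.028 to 0.12.

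**Figure D4:**
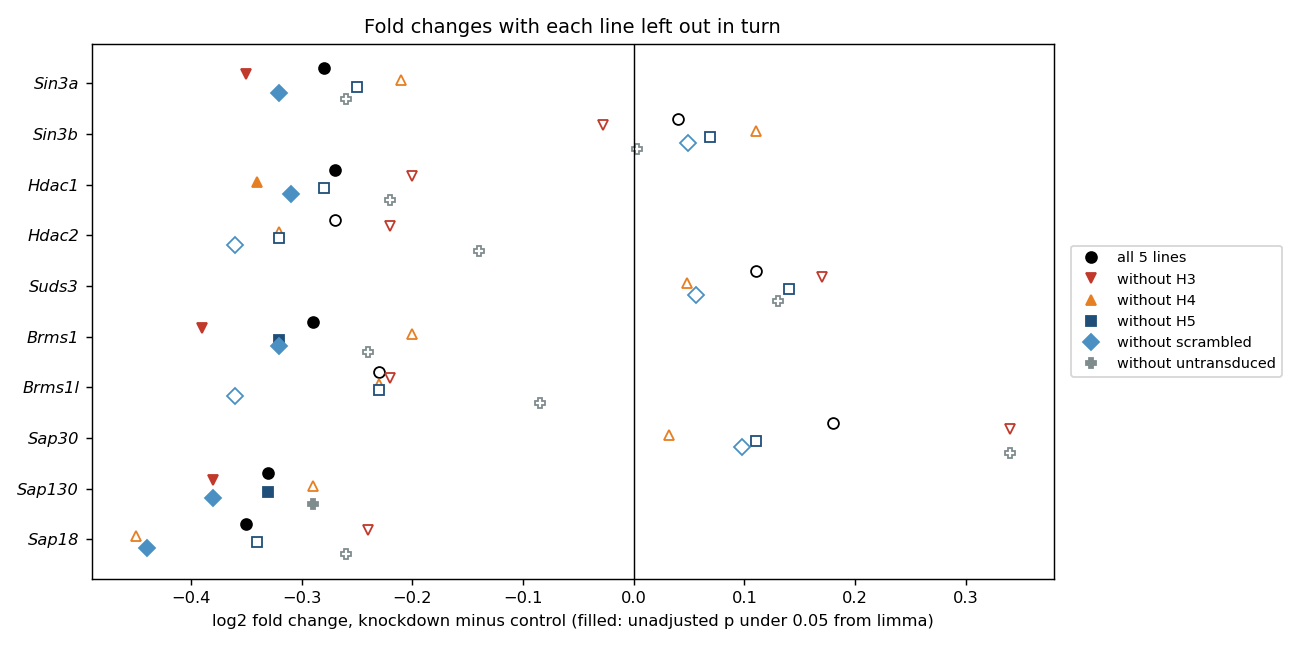
Log2 fold change of each subunit gene with all 5 lines (black) and with each line left out in turn, where filled symbols passed an unadjusted p of 0.05 from limma. *Sap130* stays filled except without H4, and *Sin3b* is the subunit whose points lie on both sides of 0.

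Whether paralogs changed unequally was read from the difference of their log2 values within an array, for 4 pairs. *Sin3a* minus *Sin3b* was -0.12 and -0.13 in H3 and H4, against 0.18, 0.09 and 0.31 in H5, the scrambled line and untransduced cells. The cohorts did not overlap, and the difference between the cohort means was -0.32 (2-sided exact permutation p = 0.1, adjusted p = 0.2 over the 4 pairs). The sign is of log2 probe values and does not say which scaffold was more abundant. With 10 arrangements of the 5 lines, 0.1 is the smallest p the test can give, so that the design cannot reach 0.05. *Brms1* minus *Suds3* was -1.57 and -1.88 in H3 and H4, against -1.44, -1.28 and -1.26 in the control lines, again without overlap, and the cohort means differed by -0.40 (exact permutation p = 0.1, adjusted p = 0.2). *Hdac1* minus *Hdac2* was 0.61 and 0.65 in H3 and H4, against 0.70, 0.71 and 0.47 in the control lines. The knockdown values lay between the control values, and the cohort means differed by 0.00051 (exact permutation p = 1, adjusted p = 1). *Brms1* minus *Brms1l* was 0.18 and -0.01 in H3 and H4, against 0.11, 0.36 and -0.03 in the control lines, with a difference of -0.066 (exact permutation p = 0.9, adjusted p = 1).

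**Figure D5:**
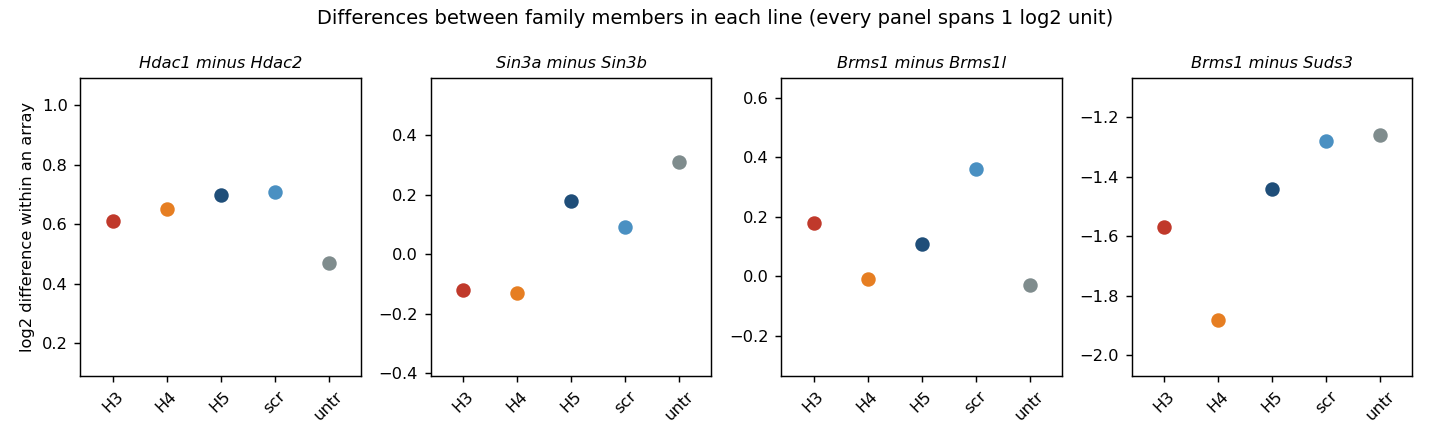
Within-array difference of log2 expression for 4 pairs of related subunit genes, knockdown lines left of the control lines, 1 point per array. The cohorts are apart for *Sin3a* minus *Sin3b* and for *Brms1* minus *Suds3* and overlap for the other pairs.

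Of 12 further genes of the SIN3 complex, 11 were measured, and *Sap25* was not. *Arid4b* and its paralog *Arid4a*, which encodes a binding protein of the retinoblastoma protein, were lower at the unadjusted threshold, 2 of the 11 against 7.61% of all genes, and 0 of the 11 were higher. *Arid4b* is the gene that the hairpins target, and the cohorts were set by its level, so that its call says nothing about the list. Apart from the target, *Arid4a* was the only gene of this list that was called. *Arid4a* had 7.39 and 7.49 in H3 and H4, against 7.69, 7.60 and 7.60 in the control lines, a difference of -0.19 (SE 0.058, unadjusted p = 0.0274 from limma). The call of *Arid4a* was made in 6 of 14 alternatives and was lost without H3, without H5, without the scrambled line and without untransduced cells, while *Arid4b* was called in all 14. The median over the 11 genes, with *Arid4b* among them, was -0.098. Both knockdown lines lay below all controls for 3 of the 11, *Arid4b*, *Arid4a* and *Rbbp4*, and above them for 0, against 13.5% and 13.9% of all genes. The histone chaperone genes *Rbbp4* (-0.14) and *Rbbp7* (-0.13) and the PHD finger gene *Ing2* (-0.23), which encodes a reader of methylated histone H3, did not pass, nor did *Ing1*, *Phf12*, *Sap30l*, *Sinhcaf*, *Morf4l1* or *Ogt*, which ranged from -0.098 to 0.12.

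SAP18 partners and other deacetylase complexes gave mixed counts. Of the 3 SAP18 partner genes of the ASAP and PSAP complexes, *Acin1* had 8.95 and 9.21 in H3 and H4, against 9.38, 9.39 and 9.48 in the control lines (difference -0.34, unadjusted p = 0.0187 from limma). *Rnps1*, an exon junction splicing factor, had 10.29 and 10.23 in H3 and H4, against 10.42, 10.36 and 10.51 in the control lines (-0.17, unadjusted p = 0.0432 from limma). *Pnn* did not pass (-0.35, unadjusted p = 0.0767 from limma), so that 2 of the 3 were lower, against 7.61% of all genes. For all 3 the knockdown lines lay below all controls, against 13.5% of all genes. *Acin1* was called in 11 of 14 alternatives and *Rnps1* in 4. Without untransduced cells 0 of the 3 passed, and *Rnps1* was also lost without H3, without H4 and without H5. The lists of the complexes that share HDAC1 and HDAC2 with SIN3 held neither *Hdac1* nor *Hdac2*, which were counted with the SIN3 subunits. *Rbbp4* and *Rbbp7* were likewise counted only with SIN3. Of these complexes, NuRD had 2 of 11 genes lower, *Chd3* (-0.23) and *Mbd3* (-0.47), against 7.61% of all genes, and a median of -0.025. *Chd3* was called in all 14 alternatives and *Mbd3* in 9, and the call of *Mbd3* was lost without H3, without H4 and without H5. CoREST had *Rcor3* lower (-0.45) and *Hmg20b* higher (0.29) among 6 measured genes, against 7.61% and 4.34% of all genes. Its median was -0.051, and each of the 2 genes was called in 8 of 14 alternatives. Without H3, or without the scrambled line, neither passed. *Rcor3* was also lost without H4 and without H5, and *Hmg20b* without H5 and without untransduced cells. MiDAC had 0 of 3 called and a median of 0.071. Both knockdown lines lay below all controls for 5 of the 11 NuRD, 1 of the 6 CoREST and 0 of the 3 MiDAC genes, against 13.5% of all genes. They lay above all controls for 2, 1 and 2 of these genes, against 13.9% of all genes.

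Of the 4 measured NCoR and SMRT genes, *Hdac3*, their catalytic subunit, was the 1 that was lower, against 7.61% of all genes. It had 11.15 and 11.05 in H3 and H4, against 11.44, 11.34 and 11.52 in the control lines (-0.34, unadjusted p = 0.00775 from limma). Both knockdown lines lay below all controls for 3 of the 4 genes and above them for 0, against 13.5% and 13.9% of all genes. *Hdac3* was called in 13 of 14 alternatives, not without H4. Among 16 other deacetylase and sirtuin genes, 4 were lower, *Hdac3*, *Sirt1*, *Sirt6* and *Sirt7*, and *Sirt2* was higher, against 7.61% of all genes lower and 4.34% higher, with a median of 0.027 over the 16. *Sirt1* and *Sirt6* were called in all 14 alternatives, and *Sirt7* and *Sirt2*, which lay close to the threshold, in 4 each. Without H3, H4 or untransduced cells neither *Sirt7* nor *Sirt2* passed, *Sirt7* was also lost without the scrambled line and *Sirt2* without H5. *Sirt7* and *Sirt2* are named although they fell outside the rule for named genes, after their values were seen, and so are *Mxd3*, *Klf10* and *Rest* below. *Sirt1*, which encodes an NAD-dependent deacetylase, had 7.68 and 7.78 in H3 and H4, against 8.83, 8.52 and 8.96 in the control lines (-1.04, unadjusted p = 0.00118 from limma), a larger difference than that of any SIN3 subunit among the 10. Of 12 genes for transcription factors that recruit SIN3, 3 were higher, against 4.34% of all genes, and 0 lower, with a median of 0.10. After array medians were subtracted, 0 were higher and 2 were lower (*Mxd3* and *Klf10*), so that the counts in each direction depend on the scaling. *Mxd1*, which encodes the MYC antagonist MAD1, had 8.11 and 8.43 in H3 and H4, against 7.76 to 8.0 in the control lines (0.37, unadjusted p = 0.0393 from limma). *Mxi1* (0.28) and the forkhead gene *Foxk1* (0.25) were the others. None of the 12 was higher with array weights or when H4 or H5 was left out, and 2 were higher when the scrambled line or untransduced cells were left out. Leaving out H3 gave 2 higher, and *Mxd3* and *Klf10* lower, and leaving out H4 gave *Rest* lower.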

How the data were processed

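Total RNA of each of the 5 6DT1 lines was arrayed once on Affymetrix Mouse Gene 1.0 ST chips, and lines were put into cohorts by the *Arid4b* level in the sample labels. The deposited values are log2 expression values normalized by the authors, whose processing notes name RMA and Partek, without versions. The number of arrays limits the precision. Of 35556 probe sets, 21789 had 1 symbol in the platform annotation, 1621 had several and were not used, and 12146 were unnamed here. The gene ID of 21698 was found in the RefSeq table of GRCm38.p6. Of the resulting 19938 genes, 999 had several probe sets, of which that with the highest mean was taken.

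Knockdown and control cohorts were tested in R 4.3.3 by limma 3.58.1 (lmFit, eBayes, Benjamini-Hochberg over all genes), at an unadjusted p of 0.05, the threshold of the study's ANOVA, with the adjusted p beside it. The step was tested on simulated data. Paralog differences were compared with 2-sided exact permutation tests. The genes named by rule are all 10 subunits, *Arid4b*, *Arid4a*, the measured genes of the SIN3 and SAP18 partner lists, and up to 3 genes of smallest p per other list. Outside that rule, *Sirt2*, *Sirt7*, *Mxd3*, *Klf10*, *Rest* and the epithelial markers *Krt18*, *Krt14*, *Epcam* and *Cdh1* are also named. The subunits and the gene lists were chosen with earlier results of these data known. Alternatives were another quantile normalization, subtracted array medians, an unmoderated test, trend and robust moderation, a filter that removed 1 in 3 genes of lowest mean, averaged probe sets, array weights, regression on ARID4B densitometry, puromycin as a covariate, and each line left out. Promoter windows were RefSeq sequence. Figures were drawn with matplotlib 3.10.9.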

Additional observations from a re-analysis of the deposited data

How the results depend on the processing

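The cohorts held 2 arrays and 3, and the SD over genes of the log2 difference was 0.263 for H3 minus H4, and 0.13 to 0.205 for pairs of control lines. No subunit reached an adjusted p of 0.05 in any of 14 alternatives (smallest 0.142, without H4). The count of 5 subunits lower was the same, with the same genes, under trend and robust moderation, subtracted medians, low genes left out, averaged probe sets and regression on densitometry. It was 2 under the unmoderated test and 2 with array weights (*Sin3a* and *Sap130* each time), 3 after another quantile normalization (*Hdac1*, *Sap130* and *Sap18*), 1 with puromycin as a covariate (*Sap130*), and 1 to 5 with a line left out. The count of subunits higher was 0, and 1 after another quantile normalization (*Suds3*). The median of -0.27 was -0.18 with puromycin as a covariate and -0.32 to -0.18 with a line left out. The share of all genes lower, 7.61%, was 11.3% with low genes left out, 10.2% after array medians were subtracted, 4.2% under the unmoderated test, 4.54% with array weights, 5.07% with puromycin as a covariate and 3.89% to 9.96% with a line left out. The puromycin fit and the fit without untransduced cells are the same fit. *Hdac1* minus *Hdac2*, at 0.00051, was -0.014 with averaged probe sets, -0.019 after quantile normalization and -0.077 to 0.042 with a line left out. *Brms1* minus *Brms1l*, at -0.066, was -0.16 to 0.041 with a line left out. The causes were not tested. No paired analysis was possible because the 5 arrays are of 5 different lines, and the labels match no knockdown line to a control line.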
